A study of Mus musculus with 35 samples.

Results

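The 9 genes *Nr1h3*, *Rxra*, *Spic*, *Tfec*, *Id1*, *Id2*, *Id3*, *Zeb2* and *Maf* encode transcription factors linked with the identity of Kupffer cells (KCs), the resident macrophages (macs) of the liver. They were found by their symbols among the 54735 genes counted in each of 35 bulk RNA-seq libraries of sorted mouse liver macs, and all 9 were among the 13421 genes with over 1 count per 1000000 of the library total in at least 5 libraries. Levels are given as CPM, which are counts per 1000000 after TMM scaling of the library sizes. All cells came from C57Bl/6J mice that were fed a standard diet (SD) or a Western diet (WD) rich in fat, cholesterol and sugar, and per the study's methods they were males that began their diet when 5 weeks old. ResKCs (CLEC4F+TIM4+) were sorted at 12 weeks from SD mice (n = 7) and WD mice (n = 5) and at 24 weeks from SD mice (n = 6) and WD mice (n = 6), while monocyte-derived KCs (moKCs, CLEC4F+TIM4-, n = 5) and CLEC4F- macs (n = 6) came from WD mice at 24 weeks. The 5 WD libraries of 12 weeks carry the standard diet in a further field of their labels, against their titles, and were taken as WD. The study counts replicates as mice, but the labels tie no library to a mouse and do not say whether populations of 24 weeks came from the same mice.

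As background, KCs take up their identity from cues of the liver sinusoid, among them BMP ligands that act through ALK1 and SMAD4, Notch ligands and sterols. LXRα, the product of *Nr1h3*, binds DNA with RXRα, the product of *Rxra*, and sustains the KC program, in which ID3 also takes part. ID proteins carry no DNA-binding region and hold E proteins of the helix-loop-helix family away from DNA, ZEB2 is a zinc finger repressor that keeps LXRα in KCs, SpiC is an ETS factor induced by heme, TFEC belongs to the MiT family, and c-MAF is a bZIP factor of tissue macs.

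In the coordinates of GENCODE M21 (GRCm38, that is mm10), 4 of the 9 genes lie on chromosome 2: *Nr1h3* from 91184061 to 91202834 on the minus strand, *Rxra* from 27676440 to 27762957 on the plus strand, *Id1* from 152736251 to 152737410 on the plus strand and *Zeb2* from 44983632 to 45117395 on the minus strand. *Spic* lies on chromosome 10 from 88674772 to 88685015, *Id2* on chromosome 12 from 25093799 to 25097140, *Id3* on chromosome 4 from 136143497 to 136145755, *Tfec* on chromosome 6 from 16833373 to 16898441 and *Maf* on chromosome 8 from 115682942 to 115707794. The antisense gene *Zeb2os* (45110707 to 45114087) lies inside the span of *Zeb2*, and since the strand setting of the counting is not given in the sources used here, reads of the pair cannot be told apart in their overlap. *Zeb2os* had a mean of 4.51 to 6.29 CPM by group, against 351 to 400 CPM for *Zeb2*.

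The RefSeq promoter windows (GRCm38.p6, from 250 bases before to 50 bases after a start site, 300 in all) covered 7 of the 9 genes with 12 windows. 4 windows are shown here because their genes carry the differences described below: *Id2* and *Id3* between diets, and *Nr1h3* and *Rxra* between KCs and CLEC4F- macs. Each is written 5′ to 3′ along the gene, and capitals mark matches to the GC-rich SMAD element GGCGCC or to the nuclear receptor motif AGGTCA on either strand.
Id2, minus strand, chr12:25096043-25096342: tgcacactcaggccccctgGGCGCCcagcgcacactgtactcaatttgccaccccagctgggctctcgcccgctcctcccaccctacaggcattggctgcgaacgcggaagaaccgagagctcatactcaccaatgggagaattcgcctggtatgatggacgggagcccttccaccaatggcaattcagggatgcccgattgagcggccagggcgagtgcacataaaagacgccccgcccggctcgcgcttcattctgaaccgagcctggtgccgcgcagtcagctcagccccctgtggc
Id3, plus strand, chr4:136143572-136143871: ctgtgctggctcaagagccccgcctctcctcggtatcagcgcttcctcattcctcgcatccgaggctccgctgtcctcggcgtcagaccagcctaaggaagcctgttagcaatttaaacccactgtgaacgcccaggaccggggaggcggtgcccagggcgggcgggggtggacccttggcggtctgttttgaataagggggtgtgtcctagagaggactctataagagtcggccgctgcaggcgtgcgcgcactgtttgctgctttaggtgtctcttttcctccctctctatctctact
Nr1h3, minus strand, chr2:91195067-91195366: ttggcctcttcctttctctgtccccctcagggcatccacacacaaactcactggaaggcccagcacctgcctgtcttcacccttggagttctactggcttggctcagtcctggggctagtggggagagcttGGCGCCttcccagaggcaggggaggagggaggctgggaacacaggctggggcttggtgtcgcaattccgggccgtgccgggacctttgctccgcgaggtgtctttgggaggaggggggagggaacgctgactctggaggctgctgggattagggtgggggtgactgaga
Rxra, plus strand, chr2:27709042-27709341: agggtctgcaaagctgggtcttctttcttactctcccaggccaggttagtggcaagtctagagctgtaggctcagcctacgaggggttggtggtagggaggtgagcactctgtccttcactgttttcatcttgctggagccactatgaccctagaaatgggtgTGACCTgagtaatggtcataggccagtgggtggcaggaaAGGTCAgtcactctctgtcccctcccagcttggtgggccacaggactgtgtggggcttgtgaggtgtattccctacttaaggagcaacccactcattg

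The GGCGCC element began 231 bases before the start site of *Id2* and 119 bases before that of the *Nr1h3* window shown. It was in windows of 2 of the 7 genes and in 11.9% of all 32851 RefSeq promoters of this length. The AGGTCA motif was in the *Rxra* window shown, 87 and 48 bases before the start site, in no other window of these genes, and in 16.3% of all promoters. *Rxra* has a further window (chr2:27676951-27677250), which is not shown and has no match to AGGTCA. The SMAD box GTCTAGAC (0.213% of all promoters), the cAMP response element TGACGTCA (1.79%), the PU.1-type ETS site GAGGAAGT (3.20%) and the EGR site GCGGGGGCG (2.91%) had no match in the 12 windows. The E-box CANNTG was in windows of 4 of the 7 genes and in 72.3% of all promoters, and was left in lower case. These matches are a description of letters, and the windows were searched on both strands.

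Totals per library lay between 11568590 and 15163845 counts, so 3 counts were worth 0.198 to 0.259 counts per 1000000 before TMM scaling, and all 9 genes stood far above that floor (which covers counting error only) in all libraries. The summed level of 8 KC markers (*Clec4f*, *Timd4*, *Vsig4*, *Cd5l*, *Marco*, *Cd163*, *Xlr* and *Folr2*) was 26655 to 37114 CPM in the ResKC libraries, 17096 to 24661 CPM for moKCs and 1301 to 12238 CPM for CLEC4F- macs. CLEC4F- mac replicate 4 gave the 12238 CPM, whereas the other CLEC4F- mac libraries gave 1301 to 5569 CPM. The summed level of 6 hepatocyte markers was 415 to 2320 CPM over all groups, the neutrophil marker *Ly6g* was at 0 counts in all 35 libraries, and T and NK cell markers summed to at most 13.5 CPM. CLEC4F- macs had higher levels than WD ResKCs of all 4 B cell markers (sums of 28.3 to 163 against 9.87 to 28.4 CPM), of 2 of 5 stellate cell markers (*Dcn* and *Col3a1*), of the dendritic cell marker *Flt3* and of the lymphocyte marker *Nkg7*, and the part of such cells in the differences from CLEC4F- macs was not tested. Against moKCs, CLEC4F- macs were higher in 2 of 4 B cell markers (*Cd79a* and *Ms4a1*, with a summed level of 16.3 to 52.1 CPM in moKCs) and in *Flt3*. Of the 6 hepatocyte markers 1, *Trf*, was higher both in WD ResKCs and in moKCs than in CLEC4F- macs. The alignment names in the file headers are of 2 styles, one with 22 libraries and the other with 13, and what they stand for is not given in the sources used here. All SD libraries of 24 weeks and all WD libraries of 12 weeks have the first style, and the other groups hold both.

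Per kilobase of exon, the mean level in SD ResKCs at 12 weeks was highest for *Id3* (557 CPM per kb) and *Nr1h3* (337 CPM per kb). *Id2* followed with 194, *Rxra* with 116, *Id1* with 65.1 and *Spic* with 42.5 CPM per kb. *Maf*, *Zeb2* and *Tfec* were the lowest, with 22.5, 19.3 and 11.2 CPM per kb. In CLEC4F- macs *Id3* was again the highest, with 377 CPM per kb, and *Tfec* the lowest, with 6.91 CPM per kb. These lengths are of all annotated exons of a gene, so the order across genes depends on which transcripts the cells make.

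**Figure D1:**
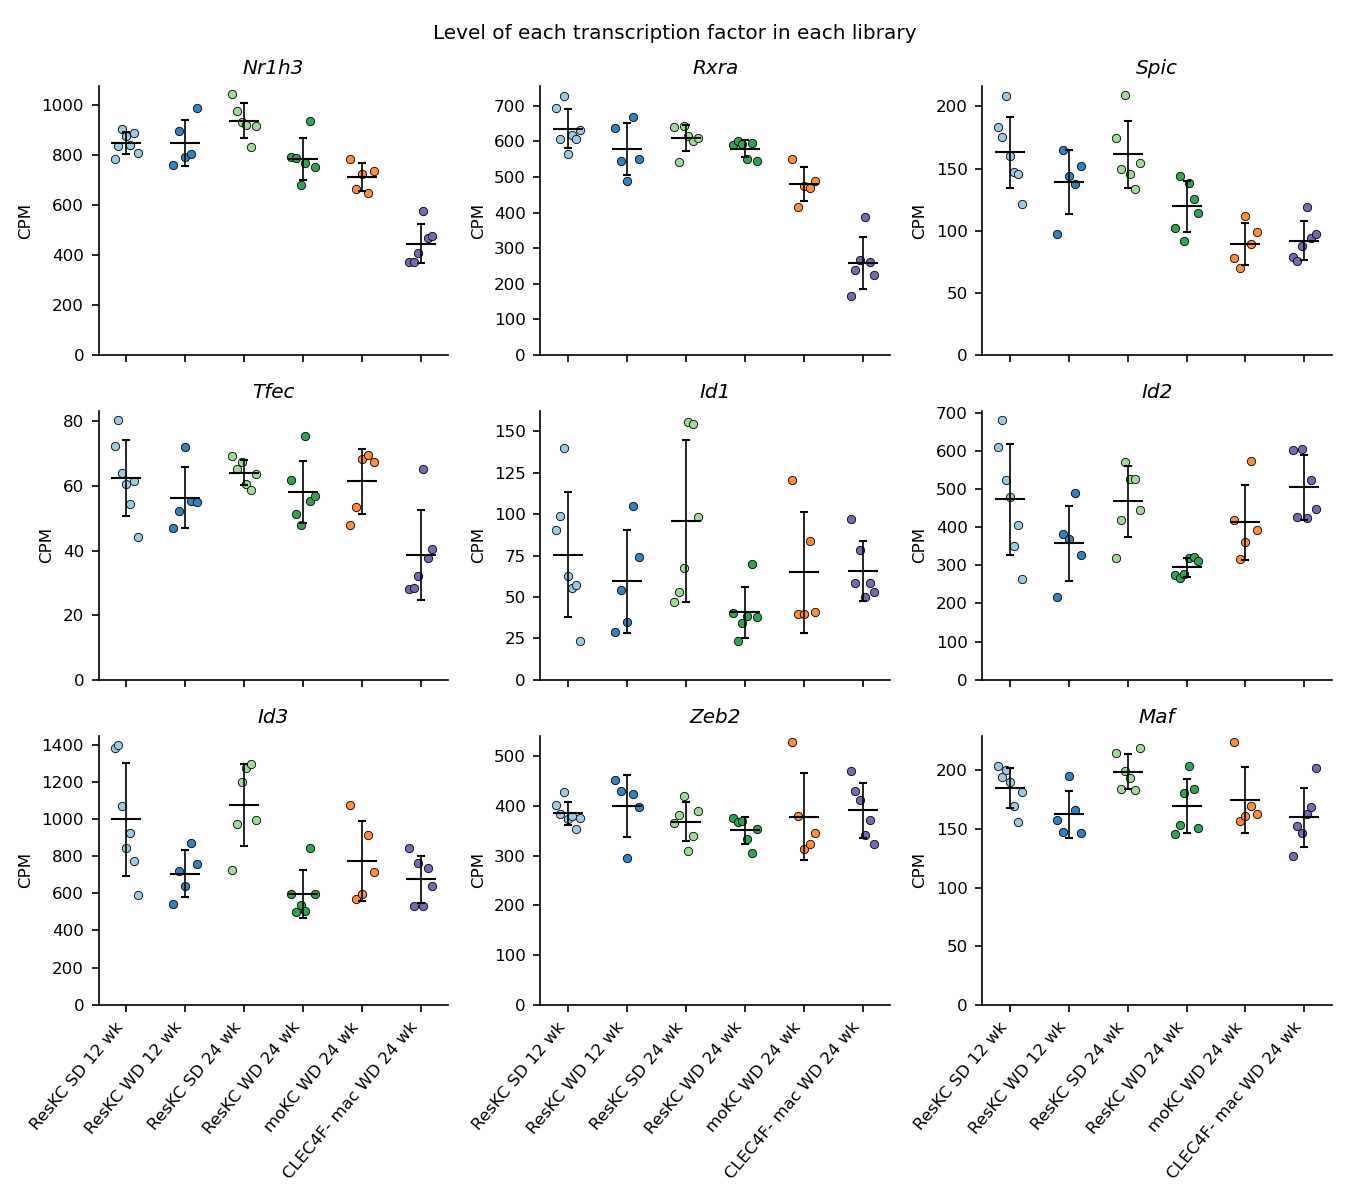
Each panel plots the TMM-scaled CPM of 1 gene (vertical axis, from 0) in the 35 libraries by group (horizontal axis), with the group mean as a horizontal line and the SD as an error bar. *Nr1h3* and *Rxra* are lowest in the 6 CLEC4F- mac libraries, the Id genes spread widely within groups, and the ranges of *Zeb2* and *Maf* overlap between all groups.

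Tests between groups came from 1 edgeR quasi-likelihood fit to all 35 libraries, with Benjamini-Hochberg adjustment over the 13421 genes, and a gene was called at an adjusted p under 0.05. The comparison of WD with SD ResKCs asked whether the diet changes these factors in the resident cells, and that of the 3 populations asked how far recruited macs express them.

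The LXRα and RXRα pair set the KC populations apart from CLEC4F- macs. Of the 9 factors, 4 were higher in WD ResKCs than in CLEC4F- macs at 24 weeks (*Nr1h3*, *Rxra*, *Tfec* and *Spic*), where 17.0% of all genes tested were called higher, and 1 was lower (*Id2*), where 16.1% were. Between moKCs and CLEC4F- macs, 3 factors were higher in moKCs (*Nr1h3*, *Rxra* and *Tfec*; 9.34% of all genes) and 0 lower (7.09% of all genes; DESeq2 and limma-voom also gave 0, and the 3 higher factors were the only members among the 3647 genes with an unadjusted edgeR p under 0.05). The 2 comparisons share the CLEC4F- mac libraries.

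*Nr1h3* had a median of 777 CPM in WD ResKCs at 24 weeks (679 to 935 CPM) and of 439 CPM in CLEC4F- macs (372 to 575 CPM). In the 5 moKC libraries it had 785, 665, 726, 646 and 737 CPM. All 6 ResKC and all 5 moKC libraries thus lay above every CLEC4F- mac library, while ResKCs and moKCs overlapped. Against CLEC4F- macs, the log2 fold change was 0.82 ± 0.088 (SE, adjusted p = 7.08e-09) for ResKCs and 0.68 ± 0.091 (SE, adjusted p = 2.6e-06) for moKCs. Across the 6 groups, the mean of *Nr1h3* fell in the order SD ResKCs at 24 weeks (936 CPM), SD ResKCs at 12 weeks (848 CPM), WD ResKCs at 12 weeks (847 CPM), WD ResKCs at 24 weeks (785 CPM), moKCs (712 CPM) and CLEC4F- macs (446 CPM). Of the neighbours in this order, moKCs and CLEC4F- macs passed the test, and the other 4 steps had adjusted p-values of 0.487 to 1.00. The level of *Nr1h3* relative to *Nr1h2*, which encodes the related receptor LXRβ, was 7.90 ± 0.85 (a ratio of levels, SD, n = 6) for ResKCs of WD mice at 24 weeks, 7.29 ± 0.81 (SD, n = 5) in moKCs and 4.70 ± 0.72 (SD, n = 6) in CLEC4F- macs, and *Nr1h2* itself was not called in any of these comparisons.

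*Rxra* had the largest difference of the 9 factors between populations. It had a median of 592 CPM in WD ResKCs at 24 weeks (545 to 600 CPM) and of 250.1 CPM in CLEC4F- macs (164 to 387 CPM), with 551, 416, 474, 468 and 489 CPM in the moKC libraries. ResKCs and moKCs lay wholly above CLEC4F- macs, and 5 of the 6 ResKC libraries lay above every moKC library, 1 of them by a margin lost in rounding. Relative to CLEC4F- macs, the log2 fold change was 1.17 ± 0.12 (SE, adjusted p = 1.35e-09) for ResKCs and 0.90 ± 0.12 (SE, adjusted p = 2.01e-06) for moKCs, and between ResKCs and moKCs it was 0.27 ± 0.12 (SE, adjusted p = 0.243). The ratio of *Rxra* to *Rxrb*, which encodes RXRβ, was 5.55 ± 0.43 (SD, n = 6) in WD ResKCs, 4.52 ± 0.44 (SD, n = 5) in moKCs and 2.71 ± 0.65 (SD, n = 6) in CLEC4F- macs.

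*Tfec*, a macrophage-restricted relative of *Mitf*, followed the same line at a lower level. Its median was 56.2 CPM in WD ResKCs at 24 weeks (48.0 to 75.4 CPM) and 34.8 CPM in CLEC4F- macs (28.1 to 65.2 CPM), and the moKC libraries had 48.0, 53.5, 68.5, 69.7 and 67.3 CPM. CLEC4F- mac replicate 4, with 65.2 CPM, lay inside the range of both KC groups, and the other 5 lay below both at 28.1 to 40.6 CPM. This gave a log2 fold change against CLEC4F- macs of 0.59 ± 0.16 (SE, adjusted p = 0.00373) for ResKCs and 0.67 ± 0.16 (SE, adjusted p = 0.00392) for moKCs.

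*Spic*, which encodes the heme-induced factor of iron-recycling macs, differed less from CLEC4F- macs than *Nr1h3*, *Rxra* and *Tfec* did. Its median was 120 CPM in WD ResKCs at 24 weeks (91.9 to 144 CPM) and 90.8 CPM in CLEC4F- macs (75.6 to 119 CPM), and the moKC libraries had 77.7, 69.8, 112, 89.3 and 99.2 CPM. The 3 groups overlapped, although 3 of 6 ResKC libraries lay above every CLEC4F- mac library. The log2 fold change of ResKCs was 0.38 ± 0.14 against CLEC4F- macs (SE, adjusted p = 0.0385) and 0.42 ± 0.15 against moKCs (SE, adjusted p = 0.129). The first of these calls was lost with library size alone (0.26, adjusted p = 0.154) and when WD ResKC replicate 2, 4 or 5 or CLEC4F- mac replicate 1, 2, 3 or 5 was left out (adjusted p = 0.0528 to 0.109).

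*Id2* went the other way. Its median was 294 CPM in WD ResKCs at 24 weeks (266 to 321 CPM) and 484 CPM in CLEC4F- macs (424 to 604 CPM), with no overlap, and the moKC libraries had 418, 316, 361, 574 and 392 CPM. The log2 fold change of ResKCs against CLEC4F- macs was -0.77 ± 0.18 (SE, adjusted p = 0.00124). *Id1* (-0.70 ± 0.37, SE, adjusted p = 0.153) and *Id3* (-0.18 ± 0.19, SE, adjusted p = 0.519) did not pass the test in the fit of all groups, and *Id1* passed in a fit of the compared groups alone (-0.71, adjusted p = 0.0297). Between moKCs and CLEC4F- macs no Id gene was called, with adjusted p-values of 0.367 for *Id2*, 0.593 for *Id3* and 0.986 for *Id1*. With a covariate for immediate-early and heat-shock genes, described below, *Id3* was called higher in moKCs (0.24, adjusted p = 0.0201). Between ResKCs and CLEC4F- macs, 3 of 10 such genes (*Fos*, *Junb* and *Atf3*) had lower levels in ResKCs and 0 had higher ones, with a list median of -0.95, and between moKCs and CLEC4F- macs 0 were called. With that covariate *Id2* was at -0.45 between ResKCs and CLEC4F- macs (adjusted p = 0.0043) and stayed called.

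CLEC4F- mac replicate 4, the library with the most KC marker RNA of its group, also had the highest *Nr1h3* (575 CPM), *Rxra* (387 CPM), *Tfec* (65.2 CPM) and *Spic* (119 CPM) of the 6. In a bulk sample, KCs within the sort and a higher level per cell cannot be told apart. Without this library, the log2 fold change of ResKCs against CLEC4F- macs was 0.90 for *Nr1h3*, 1.32 for *Rxra*, 0.80 for *Tfec* and 0.46 for *Spic*, and all 4 calls held (adjusted p = 1.7e-12 to 0.0117). Within the second style of alignment name alone (3 libraries each), *Nr1h3* (0.69, adjusted p = 0.00126) and *Rxra* (0.95, adjusted p = 0.00138) were called, and *Tfec* (0.38, adjusted p = 0.224), *Spic* (0.28, adjusted p = 0.176) and *Id2* (-0.55, adjusted p = 0.0881) were not. In that style alone *Tfec* was not called between moKCs and CLEC4F- macs either (0.52, adjusted p = 0.211). The summed level of 7 sinusoidal endothelial markers was lower in CLEC4F- macs (413 to 662 CPM) than in WD ResKCs (803 to 1234 CPM) and moKCs (707 to 1685 CPM), and the same 3 of the 7 (*Stab2*, *Pecam1* and *Cdh5*) were called higher in either than in CLEC4F- macs. Of the 7, 0 were called lower in either, but the list median was -0.26 for ResKCs and 0.55 for moKCs. Most of the 7 were thus not higher in ResKCs than in CLEC4F- macs. The sum includes *Cdh5*, whose level goes with *Rxra* across these libraries, and with or without *Cdh5* a covariate for these markers left the same 5 factors called for ResKCs and the same 3 for moKCs.

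**Figure D2:**
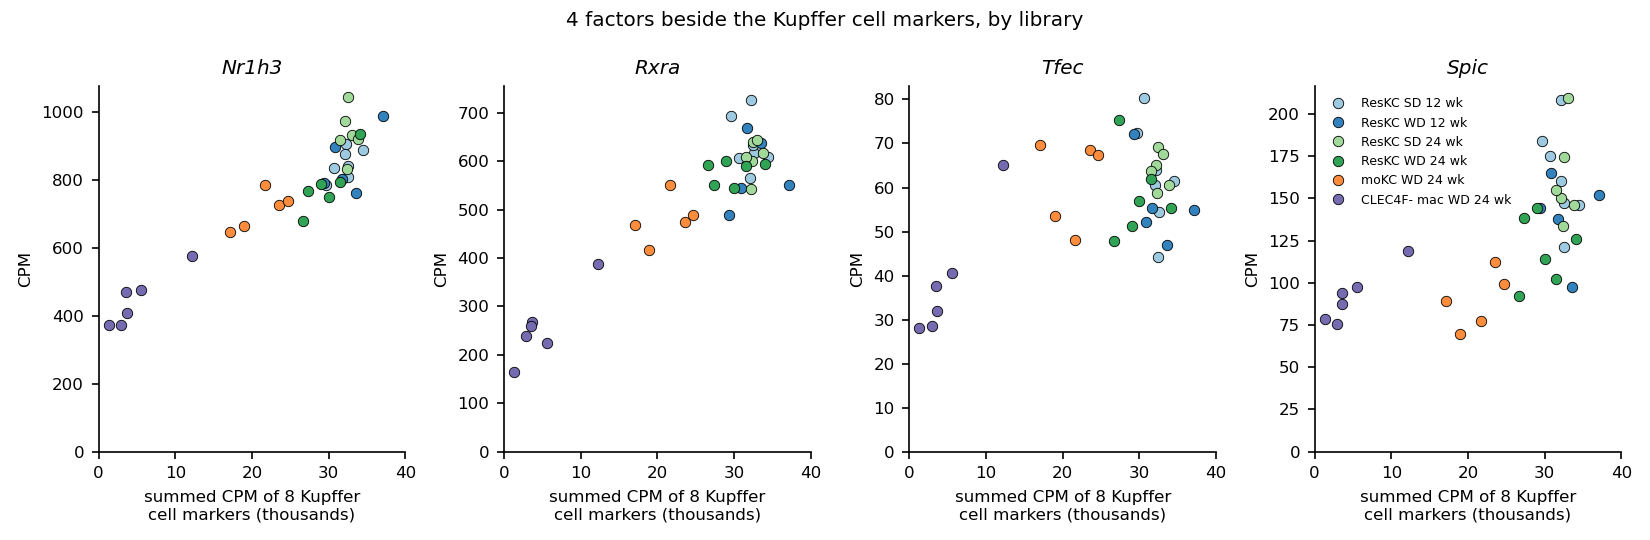
CPM of *Nr1h3*, *Rxra*, *Tfec* and *Spic* (vertical axes, from 0) plotted against the summed CPM of 8 KC markers (horizontal axes), with 1 point for each of the 35 libraries coloured by group. The CLEC4F- mac library at 12238 CPM of markers has the highest level of each gene in its group, and the moKC libraries lie between CLEC4F- macs and ResKCs in markers.

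Between WD ResKCs and moKCs at 24 weeks none of the 9 factors was called, against 2.99% of all genes tested. DESeq2 and limma-voom also called 0 of 9, and 3 factors, among 2135 of the 13421 genes, had an unadjusted p under 0.05 in edgeR: *Spic* (0.42 ± 0.15, SE), *Rxra* (0.27 ± 0.12, SE) and *Id2* (-0.48 ± 0.19, SE). The lowest adjusted p was 0.129, that of *Spic*. Over the other settings *Id2* ran from -0.56 to -0.21 and was not called. The immediate-early and heat-shock genes described below had a list median of -0.99, with 0 of 10 called. *Tfec* (-0.078 ± 0.16, SE), *Maf* (-0.044 ± 0.11, SE) and *Zeb2* (-0.11 ± 0.11, SE) had the smallest differences. A p above the limit does not show that the groups are alike, and the SE gives the size of difference that these libraries could miss. Markers of other cells also differed here. ResKCs had lower levels of 2 of 5 stellate cell markers (*Dcn* and *Col3a1*), 1 of 4 B cell markers (*Cd79b*) and 2 of 6 recruited macrophage markers (*Ccr2* and *Cx3cr1*). In these lists 0 were higher. The part of such cells in the differences between ResKCs and moKCs, here and below, was not tested.

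The Id genes were lower in WD than in SD ResKCs at 24 weeks. Of the 9 factors, 4 were lower in WD than in SD ResKCs (*Id1*, *Id2*, *Id3* and *Spic*), where 3.87% of all genes tested were called lower, and 0 were higher, where 4.84% were (DESeq2 and limma-voom also gave 0 higher). All 9 log2 fold changes were below 0, with a median of -0.25 against 0.0037 over all genes, and 6 members had an unadjusted p under 0.05, as did 3331 of the 13421 genes. Markers of other cells also differed between these libraries. Of 6 recruited macrophage markers 3 were higher in WD ResKCs (*Itgax*, 2.63, *Cx3cr1*, 2.50, and *Spp1*, 2.92), with a summed level of 40.7 to 148 CPM against 7.43 to 22.8 CPM in SD ResKCs. Of 7 endothelial markers 1 was lower (*Pecam1*, -0.58), with a list median of -0.84 and a summed level of 803 to 1234 CPM against 1111 to 1973 CPM. Of 5 stellate cell markers 1 was lower (*Dcn*, -1.26; sums of 33.2 to 95.7 against 58.5 to 176 CPM), and of 4 B cell markers 1 was lower (*Cd79b*, -1.29; sums of 9.87 to 28.4 against 20.4 to 55.5 CPM). With an endothelial covariate, with or without *Cdh5*, the 4 factors stayed called, and the part of the other markers was not tested. Of 10 immediate-early and heat-shock genes, described below, 7 were also lower in WD ResKCs and 0 higher. With those genes as a covariate, none of the 4 factors stayed called.

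*Id3* had the lowest adjusted p. Its level was 726 to 1297 CPM in SD ResKCs at 24 weeks, with a median of 1094 CPM, and 497 to 843 CPM in WD ResKCs, with a median of 567 CPM. WD replicate 5, with 843 CPM, was the 1 WD library inside the SD range, and the other 5 lay below every SD library. The log2 fold change was -0.85 ± 0.19 (SE, adjusted p = 0.00449), or 44.6% lower. Without WD replicate 5 it was -0.98 (adjusted p = 0.00146).

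*Id1* had the largest fold change and the widest spread. Its level was 46.9 to 156 CPM in SD ResKCs, with a median of 82.7 CPM, and 23.4 to 70.0 CPM in WD ResKCs, with a median of 38.1 CPM. 5 of 6 WD libraries lay below every SD library. Between diets the log2 fold change was -1.24 ± 0.37 (SE, adjusted p = 0.0334). The call was lost in limma-voom (-1.15, adjusted p = 0.0606) and when SD replicate 4 or 5 or WD replicate 1, 2, 3, 4 or 6 was left out (adjusted p = 0.0546 to 0.0911).

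*Id2* was 318 to 571 CPM in SD ResKCs, with a median of 484.5 CPM, and 266 to 321 CPM in WD ResKCs, with a median of 294 CPM. The 6 WD libraries were close together and 4 of them lay below every SD library. WD ResKCs had a log2 fold change of -0.66 ± 0.18 (SE, adjusted p = 0.0214), and the call held with each library left out in turn. It was lost with the immediate-early covariate described below (-0.13, adjusted p = 0.651) and with the style of alignment name as a covariate.

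*Spic* was 134 to 210 CPM in SD ResKCs, with a median of 152 CPM, and 91.9 to 144 CPM in WD ResKCs, with a median of 120 CPM. 4 of 6 WD libraries lay below every SD library. For *Spic* the log2 fold change was -0.43 ± 0.14 (SE, adjusted p = 0.0496), just under the limit. The call was lost in limma-voom (adjusted p = 0.0509), without a filter (adjusted p = 0.0779), with library size alone (adjusted p = 0.0863) and when SD replicate 1, 2, 3, 4 or 6 or WD replicate 1, 3, 5 or 6 was left out (adjusted p = 0.0567 to 0.127).

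The other 5 factors did not pass the test for diet. *Nr1h3* was 830 to 1042 CPM in SD and 679 to 935 CPM in WD ResKCs at 24 weeks, with a log2 fold change of -0.25 ± 0.087 (SE, adjusted p = 0.0639), and 5 of 6 WD libraries lay below every SD library. DESeq2 called it (-0.25, adjusted p = 0.0402), and so did edgeR without SD replicate 5 (-0.29, adjusted p = 0.0492) or WD replicate 5 (-0.31, adjusted p = 0.0247). *Maf* had a log2 fold change of -0.23 ± 0.10 (SE, adjusted p = 0.153), *Tfec* of -0.14 ± 0.16 (SE, adjusted p = 0.624), *Rxra* of -0.071 ± 0.11 (SE, adjusted p = 0.753) and *Zeb2* of -0.068 ± 0.11 (SE, adjusted p = 0.750).

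The Id genes moved with immediate-early and heat-shock genes (*Fos*, *Fosb*, *Jun*, *Junb*, *Egr1*, *Ier2*, *Atf3*, *Dusp1*, *Hspa1a* and *Hspa1b*), which respond within minutes to stimuli and to handling of cells. Their summed level was 2587 to 13824 CPM in SD ResKCs at 24 weeks (median 8863 CPM) and 1050 to 4945 CPM in WD ResKCs (median 1953 CPM), and 7 of the 10 were lower in WD ResKCs and 0 higher. The 3 with the lowest adjusted p were *Dusp1* (-2.10 ± 0.49, SE, adjusted p = 0.00665), *Fos* (-2.24 ± 0.54, SE, adjusted p = 0.00888) and *Egr1* (-2.22 ± 0.66, SE, adjusted p = 0.0308). Across the 35 libraries, the mean log2 CPM of the 10 genes had a Pearson r of 0.901 with *Id3*, 0.896 with *Id1* and 0.810 with *Id2*, and r was 0.943, 0.862 and 0.805 after group means were taken out. The other 6 factors had an r between -0.0069 and 0.285. These values share their libraries, so they are a description.

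With the mean of the 10 genes as a covariate in the edgeR fit, none of the 9 factors was called between diets at 24 weeks. It left a log2 fold change of -0.098 for *Id1* (adjusted p = 0.861), -0.13 for *Id2* (adjusted p = 0.651), -0.25 for *Id3* (adjusted p = 0.0824) and -0.38 for *Spic* (adjusted p = 0.209). In the comparison of ResKCs with CLEC4F- macs the same covariate gave 0.80 for *Nr1h3* and 1.16 for *Rxra*. The part of these genes in the diet result was not tested.

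**Figure D3:**
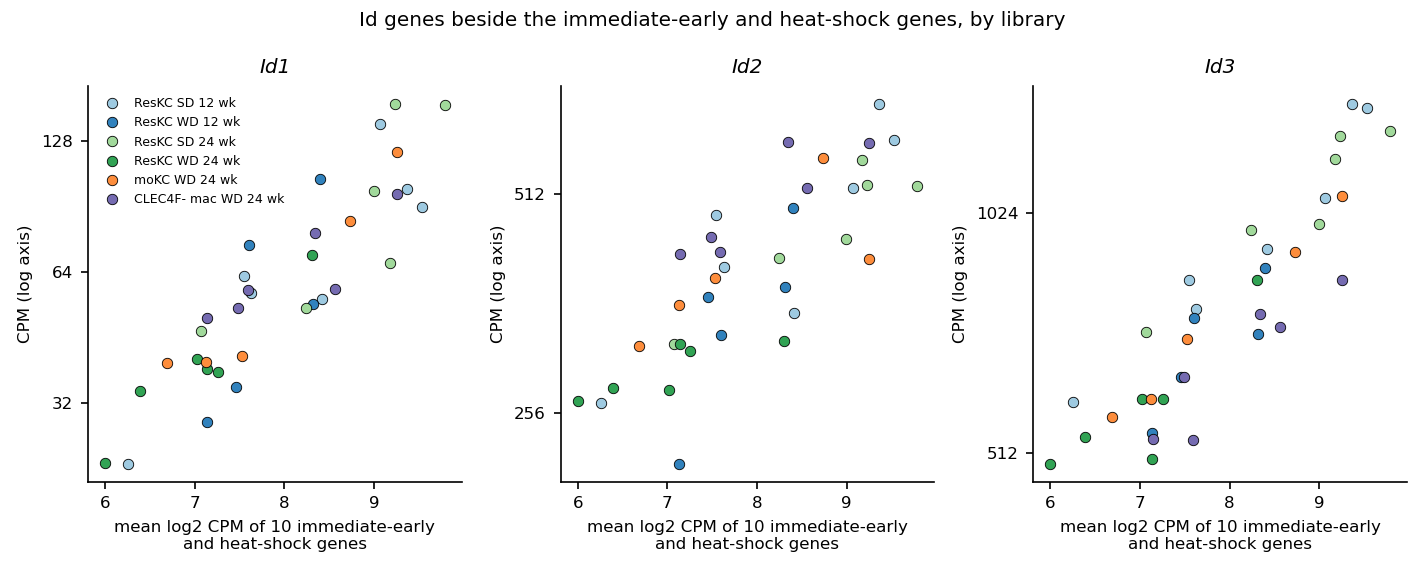
CPM of *Id1*, *Id2* and *Id3* (vertical axes, log scale) plotted against the mean log2 CPM of 10 immediate-early and heat-shock genes (horizontal axes), with 1 point for each of the 35 libraries coloured by group. The points rise together within and across groups, and the WD ResKCs of 24 weeks lie at the lower left, with replicate 5 highest among them.

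The second style of alignment name is that of 3 of the 6 WD libraries and 0 of the 6 SD libraries of 24 weeks. With the style as a covariate, *Id3* (-0.73, adjusted p = 0.0227) and *Spic* (-0.49, adjusted p = 0.0460) stayed called, *Nr1h3* was called (-0.32, adjusted p = 0.0250), and *Id1* (-0.96, adjusted p = 0.135) and *Id2* (-0.58, adjusted p = 0.0681) were not. Within the first style alone (6 SD and 3 WD libraries), *Id2* (-0.77, adjusted p = 0.0395) and *Id3* (-0.98, adjusted p = 0.0157) were called, and *Id1* (-1.54, adjusted p = 0.0617) and *Spic* (-0.51, adjusted p = 0.0760) were not. *Id3* was the 1 factor called under both.

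**Figure D4:**
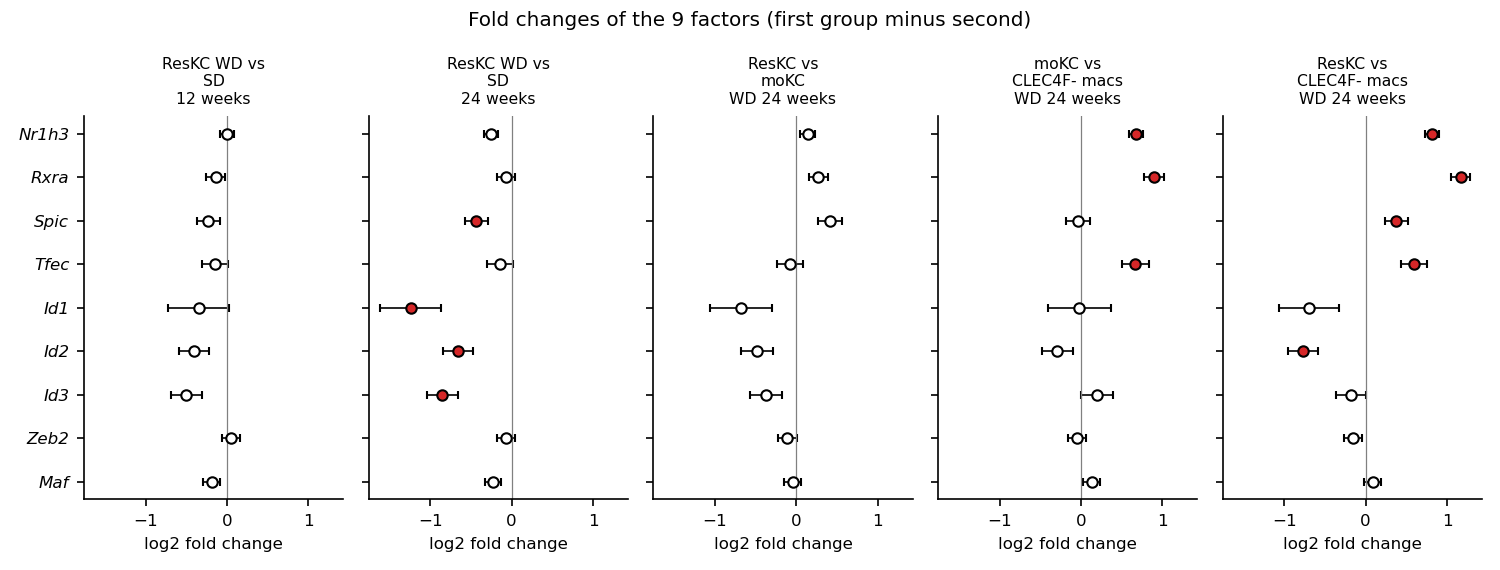
Log2 fold change (horizontal axes, first group minus second) of the 9 factors in 5 comparisons, with the SE from edgeR as error bars and filled points at an adjusted p under 0.05. The Id genes and *Spic* are filled for diet at 24 weeks, and *Nr1h3*, *Rxra* and *Tfec* are filled in both comparisons with CLEC4F- macs.

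At 12 weeks none of the 9 factors was called between WD and SD ResKCs, against 0.0373% of all genes tested, and DESeq2 and limma-voom also called 0. In edgeR 2 factors, among 1172 of the 13421 genes, had an unadjusted p under 0.05, *Id3* (-0.50 ± 0.19, SE, adjusted p = 0.453) and *Id2* (-0.41 ± 0.19, SE, adjusted p = 0.542). *Id3* was 593 to 1400 CPM in SD ResKCs at this time and 543, 722, 638, 872 and 755.5 CPM in WD ResKCs, so the groups overlapped. All 5 WD libraries of 12 weeks and 3 of the 7 SD ones have the first style of alignment name, and within that style *Id3* was 1383, 1400 and 1068 CPM in SD ResKCs, above every WD library. There *Id2* was 608.6, 681 and 523 CPM in SD ResKCs, also above the 218 to 490 CPM of WD ResKCs. The log2 fold change within the first style was -0.88 for *Id3* (adjusted p = 0.0648) and -0.78 for *Id2* (adjusted p = 0.0802), and neither was called. These 3 SD libraries also had the highest summed levels of the immediate-early and heat-shock genes described above among the ResKCs of 12 weeks, at 14577, 12036 and 9161 CPM, against 1384 to 5884 CPM in the other SD libraries and 2901 to 6028 CPM in WD ResKCs. The list median was -0.85 between diets at 12 weeks over all libraries, with 0 of 10 called, and with these genes as a covariate *Id3* was at -0.29 (adjusted p = 0.127) and *Id2* at -0.24 (adjusted p = 0.573). Over all libraries, *Id1* (-0.35 ± 0.37, SE) and *Spic* (-0.23 ± 0.14, SE) were also below 0, and *Nr1h3* was at -0.00028 ± 0.089 (SE).

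The change of the diet effect from 12 to 24 weeks, an interaction term, was called for 0 of the 9 factors, against 0.283% of all genes tested, with 0 at an unadjusted p under 0.05 and 0 in DESeq2 and limma-voom. The term was -0.89 ± 0.52 for *Id1* (SE, adjusted p = 0.459), -0.35 ± 0.27 for *Id3* (SE, adjusted p = 0.603) and -0.25 ± 0.12 for *Nr1h3* (SE, adjusted p = 0.356). The lower Id genes at 24 weeks are therefore not shown to differ from the effect at 12 weeks. SD ResKCs of 24 and 12 weeks differed in 0 of the 9 factors, with 0 at an unadjusted p under 0.05, and in 0% of all genes tested by edgeR, where 1208 genes had an unadjusted p under 0.05 and DESeq2 called 22 and limma-voom 0. *Nr1h3* had the lowest adjusted p there (0.14 ± 0.084, SE, adjusted p = 0.645).

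*Zeb2* and *Maf* were called in none of the 7 comparisons. The group means of *Zeb2* ran from 351 CPM in WD ResKCs of 24 weeks to 400 CPM in WD ResKCs of 12 weeks, and its highest library was moKC replicate 1 with 529 CPM, against 314 to 379 CPM in the other moKC libraries. The group means of *Maf* ran from 160 CPM in CLEC4F- macs to 199 CPM in SD ResKCs at 24 weeks. No neighbours in the order of either gene passed the test, with adjusted p-values of 0.670 to 0.913. The ends of the *Maf* order, which differ in diet as well as population, did, with a log2 fold change of 0.32 ± 0.10 for SD ResKCs of 24 weeks against CLEC4F- macs (SE, adjusted p = 0.0128). Within the first style of alignment name alone, *Maf* was called higher in moKCs than in CLEC4F- macs (0.45, adjusted p = 0.0458), with 2 moKC libraries, and in the second style it was at -0.12 (adjusted p = 0.765).

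Among relatives of the 9 factors, 13 of 15 listed genes passed the filter. In ResKCs at 24 weeks 1 of them was lower on the WD, the relative of *Zeb2* named *Zeb1* (-1.06 ± 0.22, SE, adjusted p = 0.00306), which had a mean of 9.70 CPM in SD and 4.65 CPM in WD ResKCs. Against CLEC4F- macs, 2 relatives were higher in ResKCs and 4 lower, led by the PU.1 gene *Spi1* (0.38 ± 0.060, SE, adjusted p = 5.31e-06), *Tfe3* (0.40 ± 0.078, SE, adjusted p = 0.000108) and *Tfeb* (-0.41 ± 0.087, SE, adjusted p = 0.000298). In moKCs 1 was lower than in CLEC4F- macs, *Tfeb* (-0.56 ± 0.091, SE, adjusted p = 3.68e-05), and 0 of 13 differed between ResKCs and moKCs.

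The E proteins that ID proteins bind were measured as *Tcf3*, *Tcf4* and *Tcf12*. *Tcf3* was higher in ResKCs (98.8 CPM, mean) than in moKCs (59.1 CPM), with a log2 fold change of 0.74 ± 0.12 (SE, adjusted p = 0.000275), and than in CLEC4F- macs (58.3 CPM), with 0.76 ± 0.12 (SE, adjusted p = 3.47e-06). *Tcf12* was highest in CLEC4F- macs, and its log2 fold change against them was -0.51 ± 0.11 in ResKCs (SE, adjusted p = 0.000718) and -0.53 ± 0.12 in moKCs (SE, adjusted p = 0.00178). With diet 0 of the 3 were called at either time, and *Tcf4* was called in no comparison.

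Of the 14 listed genes of the BMP and ALK1 route to the Id genes, 13 were found and passed the filter. The BMP receptor gene *Bmpr1a* was low outside ResKCs. It had a mean of 32.3 CPM in WD ResKCs at 24 weeks, against 2.71 CPM for moKCs and 2.81 CPM for CLEC4F- macs, and the lowest ResKC library of that group, at 17.9 CPM, lay above the highest moKC library, at 3.27 CPM. The log2 fold change of ResKCs was 3.58 ± 0.22 against moKCs (SE, adjusted p = 2.21e-13), the 1 call among the 13 there, and 3.51 ± 0.21 against CLEC4F- macs (SE, adjusted p = 1.71e-14). Against CLEC4F- macs, 5 of the 13 were higher in ResKCs and 0 lower, among them the ALK1 gene *Acvrl1* (0.62 ± 0.096, SE, adjusted p = 4.56e-06) and *Smad1* (0.48 ± 0.079, SE, adjusted p = 1.15e-05), and 3 were higher in moKCs, *Acvrl1* (0.40 ± 0.10, SE, adjusted p = 0.00468), *Smad1* (0.27 ± 0.082, SE, adjusted p = 0.0199) and the inhibitor *Smad6* (0.44 ± 0.13, SE, adjusted p = 0.0201). With diet at 24 weeks 1 was called, the ligand gene *Bmp2* (-1.28 ± 0.38, SE, adjusted p = 0.0327), at a mean of 100.3 CPM in SD and 41.4 CPM in WD ResKCs. In that comparison the 7 endothelial markers had a list median of -0.84, and *Pecam1* was called (-0.58, adjusted p = 0.0249). They ran from *Clec4g* at -1.15 (adjusted p = 0.0544) and *Kdr* at -1.14 (adjusted p = 0.112) to *Cdh5* at -0.17 (adjusted p = 0.624) and *Stab2* at -0.055 (adjusted p = 0.878). The part of these markers in the value of *Bmp2* was not tested.

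Of the 8 Notch genes, 2 were higher in WD than SD ResKCs at 24 weeks, *Dtx4* (1.04 ± 0.20, SE, adjusted p = 0.00163) and *Hey1* (0.89 ± 0.29, SE, adjusted p = 0.0464). Against CLEC4F- macs, the Notch partner *Rbpj* was lower in ResKCs (-1.11 ± 0.19, SE, adjusted p = 1.73e-05) and in moKCs (-1.17 ± 0.20, SE, adjusted p = 5.74e-05). *Dtx4* was also lower in both (-1.67 ± 0.20 and -1.53 ± 0.21, SE, adjusted p = 6.32e-08 and 4.04e-06). *Hes1* was higher in ResKCs (0.37 ± 0.12, SE, adjusted p = 0.0186) and *Hey1* in moKCs (0.98 ± 0.29, SE, adjusted p = 0.0185).

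Among the 12 LXR targets and corepressors, 1 was called with diet at 24 weeks, the desaturase gene *Scd2* (0.58 ± 0.17, SE, adjusted p = 0.0325), while *Nr1h3* itself was not higher. In ResKCs against CLEC4F- macs 2 were higher, the apolipoprotein gene *Apoc1* (2.64 ± 0.25, SE, adjusted p = 8.36e-10) and the phospholipid transfer gene *Pltp* (0.92 ± 0.15, SE, adjusted p = 6.20e-06), with 0 lower. Between ResKCs and moKCs *Apoc1* was higher (1.08 ± 0.25, SE, adjusted p = 0.0134) and *Apoe* lower (-0.53 ± 0.14, SE, adjusted p = 0.0330). In moKCs against CLEC4F- macs *Apoc1* (1.56 ± 0.25, SE, adjusted p = 2.81e-05) and *Pltp* (0.88 ± 0.15, SE, adjusted p = 6.04e-05) were higher. The cholesterol exporter genes *Abca1* and *Abcg1* were called in none of these comparisons.

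Of 9 genes of the heme and iron response around *Spic*, 2 were lower in WD than SD ResKCs at 24 weeks, the ferritin gene *Fth1* (-0.45 ± 0.11, SE, adjusted p = 0.0110) and the biliverdin reductase gene *Blvrb* (-0.40 ± 0.10, SE, adjusted p = 0.0140). ResKCs had 5 of the 9 higher than CLEC4F- macs and 0 lower, led by the hemoglobin scavenger receptor gene *Cd163* (6.73 ± 0.32, SE, adjusted p = 5.64e-17), which is also a KC marker here, the heme oxygenase gene *Hmox1* (1.65 ± 0.18, SE, adjusted p = 1.23e-08) and the iron exporter gene *Slc40a1* (1.61 ± 0.19, SE, adjusted p = 6.32e-08). Against moKCs *Cd163* (4.44 ± 0.31, SE, adjusted p = 3.52e-12) and *Hmox1* (1.16 ± 0.19, SE, adjusted p = 0.000272) were higher in ResKCs. In moKCs against CLEC4F- macs 3 were higher, *Cd163* (2.30 ± 0.28, SE, adjusted p = 6.02e-07), *Blvrb* (0.67 ± 0.11, SE, adjusted p = 2.92e-05) and *Slc40a1* (1.10 ± 0.20, SE, adjusted p = 0.00013), and *Fth1* was lower.

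Of 22 other macrophage transcription factors, 4 were lower in WD than SD ResKCs at 24 weeks (*Klf2*, *Irf1*, *Cebpb* and *Klf4*) and 1 was higher (*Nfe2*), with *Klf2* at -1.46 ± 0.32 (SE, adjusted p = 0.00462), *Irf1* at -0.65 ± 0.18 (SE, adjusted p = 0.0199) and *Cebpb* at -0.69 ± 0.19 (SE, adjusted p = 0.0223). Against CLEC4F- macs, 1 was higher in ResKCs, *Irf7* (1.01 ± 0.12, SE, adjusted p = 7.14e-08), and 7 were lower, among them *Runx3* (-4.90 ± 0.64, SE, adjusted p = 2.45e-07) and *Mef2c* (-2.99 ± 0.40, SE, adjusted p = 3.30e-07). In moKCs against CLEC4F- macs 3 were higher and 6 lower, with *Runx3* at -4.31 ± 0.66 (SE, adjusted p = 1.39e-05), *Irf7* at 0.82 ± 0.13 (SE, adjusted p = 1.69e-05) and *Pparg* at -0.98 ± 0.18 (SE, adjusted p = 0.000177). Between ResKCs and moKCs 0 of the 22 were called. The median log2 fold change of the 22 in ResKCs against CLEC4F- macs was -0.48, against 0.087 for the 9 factors and -0.023 over all genes.

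The genes whose log2 CPM was most like that of each factor over the 35 libraries were ranked by Pearson r, which is a description, since all values share libraries and groups. For *Rxra* they were *St3gal5* (0.985), *Cdh5* (0.977) and *Fam167a* (0.974), and for *Nr1h3* they were *Cfp* (0.967), *Cox5a* (0.961) and *C1qa* (0.959). *Id3* went with *Dusp1* (0.944), *Ier2* (0.930) and *Egr1* (0.929), *Id1* with *Btg2* (0.903), *Dusp1* (0.881) and *Fos* (0.863), and *Id2* with *Ccrl2* (0.893), *Ccl4* (0.891) and *Tgif1* (0.888). *Tfec* went with *Rab32* (0.854), *Gbp8* (0.852) and *Mospd2* (0.831), and *Spic* with *Aif1* (0.835), *Tmbim4* (0.829) and *Mrpl3* (0.827). *Zeb2* had its closest genes at a lower r, *Gm8995* (0.755), *Cep170* (0.728) and *Gvin1* (0.716), as had *Maf*, with *Wfdc1* (0.664), *Ppm1a* (0.646) and *Ifitm1* (0.620). Some of these were low: *Wfdc1* had a mean log2 CPM of 0.084, near the filter limit, *Ifitm1* of 2.07 and *Gvin1* of 2.38.

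Among the 9 factors themselves, 2 sets went together. *Nr1h3* and *Rxra* had an r of 0.916 over the 35 libraries and of 0.470 within groups, *Nr1h3* and *Tfec* of 0.761 and 0.464, and *Nr1h3* and *Spic* of 0.725 and 0.554. *Id1* and *Id3* had an r of 0.829 and of 0.854 within groups, *Id1* and *Id2* of 0.777 and 0.753, and *Id2* and *Id3* of 0.730 and 0.834. Between the sets, r ran over the libraries from -0.29 for *Id2* and *Rxra* to 0.466 for *Id3* and *Spic*, and within groups from -0.14 for *Id2* and *Nr1h3* to 0.381 for *Id2* and *Spic*. The lowest r inside a set was 0.633 over the libraries (*Spic* and *Tfec*) and 0.292 within groups (*Spic* and *Rxra*), so within groups the sets were not fully apart.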

How the data were processed

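RNA-seq libraries of sorted liver macs were deposited as 1 table of read counts per library. Per the labels and the submitters' processing notes, reads were checked with FastQC 0.11.9, aligned to mm10 with HISAT2 2.2.0, sorted with SAMtools 1.10 and counted per gene with featureCounts 2.0.0 by the authors. The deposited counts were not normalized. Genes over 1 count per 1000000 of the library total in at least 5 libraries were kept (13421 of 54735), scaled by TMM and tested in edgeR 4.0.16 (R 4.3.3) with its quasi-likelihood test, in 1 fit of 6 group means, with Benjamini-Hochberg adjustment over all kept genes. Printed CPM are TMM-scaled, whereas this filter and the floor of 3 counts use the unscaled library total. Alternatives were DESeq2 1.42.0, limma-voom (limma 3.58.1), other scalings, filters and thresholds, covariates, a replicate block and each library left out in turn. The fits were also run on simulated data, and no result of that is given here.

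The 9 members and all gene lists were chosen with earlier results of these data known. Genes were named by a rule: all members, the 3 list genes with the lowest adjusted p among those called per list and comparison, and the 3 genes with the highest r for each member. Some list genes are not reported here. The fits within 1 style of alignment name and the endothelial covariate without *Cdh5* were added after the data were seen. No 2 libraries of a group agreed within sampling noise.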

Additional observations from a re-analysis of the deposited data

Results flagged for a closer look

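In 2 of the 54 sets of 1 factor in 1 group, a library stood apart from the rest by Dixon's test on the logarithm of CPM. The limit was its 95% critical value, which chance alone passes in about 1 of 20 sets. *Id3* was at 842.9 CPM in WD ResKC replicate 5 of 24 weeks, against 496.8 to 598.3 CPM in the other 5 libraries, and the summed immediate-early and heat-shock level of that library, 4945 CPM, was also the highest of its group. *Maf* was at 224.6 CPM in moKC replicate 1, against 157.1 to 169.8 CPM in the other 4. Without this library the log2 fold change of *Maf* between ResKCs and moKCs turned from -0.044 to 0.062 (adjusted p = 0.846), and it was not called either way.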

How the results depend on the processing

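Of 1701 member fold changes under the alternatives, 1548 kept their direction and their side of the limit, 55 lost a call, 8 gained one and 90 turned in direction, 0 of these with a call in the fit of all groups. Between diets at 24 weeks, where 4 factors were called, 2 were called in limma-voom (*Id2*, *Id3*), 1 at a log2 fold change over 1 (*Id1*), 1 at an adjusted p under 0.01 (*Id3*), 0 with the immediate-early covariate and 2 within the first style of alignment name, and 2 to 4 with 1 library left out (2 without SD replicate 4 or WD replicate 1, 3 or 6). Each of the 12 libraries left out ended the call of *Spic*, *Id1* or both, and the count of 4 was reached only where *Nr1h3* was called instead (without SD replicate 5, -0.29, adjusted p = 0.0492, and without WD replicate 5, -0.31, adjusted p = 0.0247). For ResKCs against CLEC4F- macs 1 factor was called at a log2 fold change over 1 and 2 within the second style, in place of 5, and for moKCs against CLEC4F- macs 0 at a log2 fold change over 1, in place of 3. A stricter threshold lowers a count by its construction, and for the other settings the cause was not tested. With a replicate block in fits of the compared groups alone, 3 factors were called between diets at 24 weeks (*Spic* was lost, -0.44, adjusted p = 0.108) and 6 between ResKCs and CLEC4F- macs (with *Id1* at -0.75, adjusted p = 0.0192). The same fits without the block gave 4 and 6 (*Spic* at -0.44, adjusted p = 0.0433, and *Id1* at -0.71, adjusted p = 0.0297), so the block ended the call of *Spic* and changed no other. Replicate numbers were not used as pairs in the fit of all groups, and in no comparison did every same-numbered pair correlate over 0.1. The pairs' mean r was highest for ResKCs against CLEC4F- macs, at 0.117 (0.024 to 0.263), against -0.023 for pairs of unlike number. There 5 of 6 libraries correlated best with their own number. Whether libraries of the same number came from the same mice was not tested.

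The turned log2 fold changes are given by setting. With library size alone these were *Nr1h3* at 0.0158 for diet at 12 weeks, *Zeb2* at 0.00624 and *Rxra* at 0.00585 for diet at 24 weeks, *Maf* at 0.0157 for the interaction, *Maf* at -0.0313 for ResKCs against CLEC4F- macs. With the naming style as a covariate these were *Nr1h3* at 0.0708 and *Zeb2* at -0.0946 for diet at 12 weeks, *Zeb2* at 0.0601 for diet at 24 weeks, *Zeb2* at 0.155 and *Tfec* at -0.195 for the interaction, *Spic* at 0.0351 for SD at 24 against 12 weeks, *Id1* at 0.0236 for moKCs against CLEC4F- macs. With the immediate-early covariate these were *Id1* at 0.0208 for diet at 12 weeks, *Zeb2* at 0.0256 for diet at 24 weeks, *Id2* at 0.115 and *Id3* at 0.043 for the interaction, *Id3* at -0.0303 for SD at 24 against 12 weeks, *Id3* at 0.182 for ResKCs against CLEC4F- macs. With the replicate block these were *Zeb2* at -0.000402 for diet at 12 weeks, *Maf* at 0.0188 for the interaction, *Tfec* at -0.0313 for SD at 24 against 12 weeks. Within the first style these were *Zeb2* at -0.0353 for diet at 12 weeks, *Zeb2* at 0.0196 for diet at 24 weeks, *Id2* at 0.00996 and *Zeb2* at 0.0549 and *Maf* at 0.0076 for the interaction, *Id1* at -0.217 and *Id3* at -0.27 and *Maf* at -0.0191 and *Tfec* at -0.185 for SD at 24 against 12 weeks, *Tfec* at 0.0718 for ResKCs against moKCs, *Id1* at 0.066 and *Zeb2* at 0.0786 for moKCs against CLEC4F- macs. Within the second style these were *Zeb2* at 0.0111 and *Maf* at 0.125 for ResKCs against moKCs, *Id3* at 0.022 for ResKCs against CLEC4F- macs, *Id1* at 0.0224 and *Maf* at -0.116 for moKCs against CLEC4F- macs. In limma-voom these were *Tfec* at -0.0149 for the interaction, *Id2* at 0.018 for SD at 24 against 12 weeks. With the endothelial covariate these were *Tfec* at -0.101 for the interaction, *Spic* at 0.0948 and *Id2* at 0.103 for SD at 24 against 12 weeks, *Spic* at 0.103 and *Id1* at 0.294 for moKCs against CLEC4F- macs. With that covariate without *Cdh5* these were *Tfec* at -0.12 for the interaction, *Spic* at 0.102 and *Id2* at 0.0963 for SD at 24 against 12 weeks, *Spic* at 0.0523 and *Id1* at 0.202 for moKCs against CLEC4F- macs. With 1 library left out, 11 combinations of factor and comparison turned in 1 or more of the fits. The lowest and highest log2 fold changes over all such fits of each were *Id1* -0.371 and 0.114 (moKCs against CLEC4F- macs), *Id2* -0.121 and 0.0905 (SD at 24 against 12 weeks), *Maf* -0.103 and 0.062 (ResKCs against moKCs), *Maf* -0.102 and 0.0324 (the interaction), *Nr1h3* -0.0609 and 0.036 (diet at 12 weeks), *Spic* -0.104 and 0.0534 (SD at 24 against 12 weeks), *Spic* -0.133 and 0.0476 (moKCs against CLEC4F- macs), *Tfec* -0.0307 and 0.109 (SD at 24 against 12 weeks), *Tfec* -0.0809 and 0.112 (the interaction), *Zeb2* -0.169 and 0.0425 (ResKCs against moKCs), *Zeb2* -0.20 and 0.0109 (moKCs against CLEC4F- macs). The depth of 11568590 to 15163845 counts leaves the members far above the counting floor.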
